A study of Mus musculus with 16 samples.

Results

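Hepatic stellate cells store vitamin A and, with fibroblasts, lay down most of the liver's extracellular matrix. The genes described here are 38 of the 30199 genes measured: fibrillar, basement membrane and beaded filament collagens, proteoglycans and glycoproteins, enzymes that crosslink or degrade matrix, growth factor genes and markers of the stellate cell itself. They were taken by symbol from a list of named genes, which was chosen with earlier results of these data known. The only filter on level was an average of 10 or more normalized counts across libraries, and all 38 were found and met it.

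Polyadenylated RNA was sequenced from the livers of 16 females, each 5 months old. Each of 4 genotypes had 4 mice, and every mouse gave 1 library. Wild-type mice carried Ncoa5+/+Tip30+/+, the single heterozygotes carried Ncoa5+/-Tip30+/+ (called Ncoa5+/-) or Ncoa5+/+Tip30+/- (called Tip30+/-), and the double heterozygotes carried Ncoa5+/-Tip30+/-. The protein of Ncoa5 binds nuclear receptors and modulates their transcriptional activity. Tip30 is listed as Htatip2 in the data, and its protein is studied as a tumour suppressor. The mutations are heterozygous deletions, and no treatment or strain is named in the labels. The study's title concerns liver cancer in females, and the design asks how each deletion, alone or with the other, changed the liver transcriptome.

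Matrix proteins reach their final form outside the cell. Type I collagen is built from the chains of Col1a1 and Col1a2, type III from Col3a1 alone, type IV mainly from Col4a1 and Col4a2, and type VI from Col6a1, Col6a2 and Col6a3. Transforming growth factor beta, encoded by Tgfb1, is a strong inducer of collagen genes in stellate cells, and platelet-derived growth factor acts on the same cells through the receptors of Pdgfra and Pdgfrb. In the quiescent cell Lrat esterifies retinol for storage, Reln encodes the secreted protein reelin, and Des encodes an intermediate filament. On activation the cell turns into a contractile myofibroblast that is marked by Acta2, the smooth muscle actin.

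Depth was 24740706 to 37939978 reads in genes per library. Htatip2 lay at 685 to 1089 normalized counts in the 8 livers labelled with a Tip30 deletion and at 1835 to 2910 in the 8 others, without overlap. Ncoa5 lay at 339 to 424 in livers labelled with an Ncoa5 deletion and at 380.2 to 479 in the others, so its level does not check that label. Hepatocyte markers were high throughout, with Alb at 1289684 to 2291905. Zhx2 lay at 8.8 to 26.3 in wild type 1 and 2 and Ncoa5+/- 1 and 4, and at 166.5 to 438 in the other 12 livers. The mice carry number tags, and wild type 1 and 2 are also the only wild-type mice with a tag under 4300. The labels do not say what a tag stands for, and nothing else in them describes a batch. Values within tags under 4300 (9 livers) and from 4300 (7 livers) are therefore given beside those over all mice. P-values measure the spread between these mice.

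Promoters are shown for the called genes held by the RefSeq promoter table used here, since their changes are the main result below. The called genes were Col1a1, Col3a1 and Col6a3, and the table holds windows for Col3a1 and Col6a3 among 27 of the 38 genes. Each line gives the 250 bases before the annotated start (RefSeq, GRCm38.p6), with Col3a1 at chr1:45311288-45311537 on the plus strand and Col6a3 at chr1:90843972-90844221 on the minus strand. Capitals mark the TATA box letters TATAAA and the letters CAGAC, the core that SMAD proteins of the transforming growth factor pathway can bind, both searched on either strand, so that GTCTG counts as well.
Col3a1: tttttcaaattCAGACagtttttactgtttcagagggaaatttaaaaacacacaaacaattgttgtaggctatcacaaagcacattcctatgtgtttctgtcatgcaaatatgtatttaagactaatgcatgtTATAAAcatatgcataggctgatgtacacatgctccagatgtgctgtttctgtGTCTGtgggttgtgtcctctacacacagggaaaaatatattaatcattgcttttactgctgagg
Col6a3: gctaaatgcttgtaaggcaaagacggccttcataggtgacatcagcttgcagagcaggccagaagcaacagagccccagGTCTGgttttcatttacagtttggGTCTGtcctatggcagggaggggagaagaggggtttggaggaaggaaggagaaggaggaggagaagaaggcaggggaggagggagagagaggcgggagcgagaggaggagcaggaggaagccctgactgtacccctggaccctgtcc
The Col3a1 window held 1 match to the TATA box and 2 to the SMAD core. That of Col6a3 held 2 matches to the SMAD core and none to the TATA box. The SMAD core lay in 42.2% of all 32851 promoters of this length and in 11 of the 27 windows of these genes, or 40.7%. The TATA box lay in 12.4% of all promoters and in 3 of 27. The letters CCAAT lay in 33.8% of all promoters and in 11 of 27, and neither called window had them. The GC box, spelled GGGCGG, lay in 32.7% and in 17 of 27, again in neither called window. These counts describe letters only.

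Levels differed widely when normalized counts were divided by exon length, the scale on which genes can be compared with each other. Col18a1, the collagen that gives rise to endostatin, stood highest at 6103 normalized counts per kilobase, followed by Fn1, the fibronectin gene, at 4398 and Ecm1, a secreted glycoprotein, at 2257. On undivided normalized counts, where long genes weigh more, Fn1 and Col18a1 together held 77.7% of the sum over the 38 genes, and hepatocytes are known to express both. Per kilobase, next came Dcn (decorin) at 512, Sparc at 497, Bgn (biglycan) at 379 and Mmp14, a membrane-bound matrix metalloproteinase, at 356. The fibrillar collagens were far lower, at 69.3 for Col3a1, 50.6 for Col1a1, 45.2 for Col5a1, 33.6 for Col1a2 and 9.45 for Col5a2. Lowest was Fbn1, which encodes the microfibril protein fibrillin, at 6.51.

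**Figure D1:**
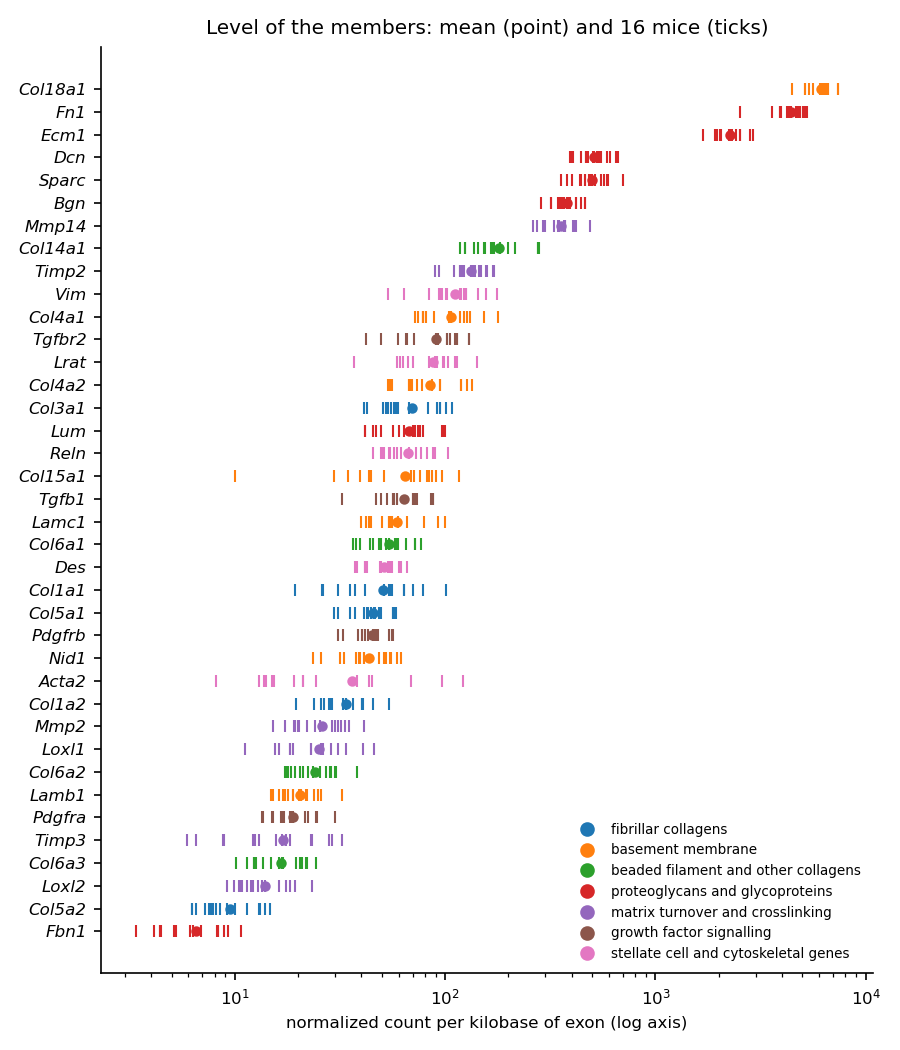
Level of each of the 38 genes in normalized counts per kilobase of exon, on a log axis. Points are means over 16 mice, ticks are single mice and colours give the role of the gene; Col18a1, Fn1 and Ecm1 have the highest means, at 6103, 4398 and 2257, and Fbn1 is lowest at 6.51.

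The stellate cell genes were all present, but an average of 10 or more was required of every gene described, so presence does not test the label. Per kilobase, Vim (vimentin, which many mesenchymal cells share) stood at 111, Lrat at 87.5, Reln at 66.4, Des at 51.4 and Acta2 at 36.2. Among the 20 other stellate cell markers on the list used here, all were detected and tested, and their summed level ran from 8702 to 15534 normalized counts over the livers.

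Heterozygous deletion of Ncoa5 went with higher levels of 3 collagen genes, and no member was lower. The comparison sets both genotypes with an Ncoa5 deletion against both without, averaged over the Tip30 genotype, and is called the Ncoa5 main effect. Col1a1 was 1.95-fold higher, Col3a1 1.497-fold and Col6a3 1.43-fold. These were 3 of 38 members, or 7.89%, beside 3.94% of the 15263 tested genes that were higher in this comparison and 3.95% that were lower. A gene was called at an adjusted p under 0.05 by limma, with Benjamini-Hochberg adjustment over all tested genes. At an unadjusted p under 0.05 the members' share was 26.3% (10 of 38), next to 26.1% of all tested genes. The sign was more one-sided: 31 of 38 members (81.6%) had a log2 change above 0, against 48.3% of all tested genes, and the median log2 change was 0.19 against -0.01. Members varied together between livers, so such a share, here and below, does not count independent results. The members' median log2 difference from the wild-type mean was -0.188 to 0.501 in single livers with the deletion. In those without it the range was -0.302 to 0.389, so the groups overlapped.

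Col1a1 (ENSMUSG00000001506, GRCm38 chromosome 11, 94936224 to 94953042) encodes the alpha 1 chain of type I collagen, of which each trimer has a pair. Its normalized counts were 272, 416, 127 and 169 in wild type 1 to 4 and 232, 202, 172 and 246 in Tip30+/- 1 to 4. With an Ncoa5 deletion they were 420.1, 665, 337 and 514 in Ncoa5+/- 1 to 4 and 358, 463, 367 and 355 in the double heterozygotes. Only wild type 2 among the 8 livers without the deletion reached into the range of the 8 with it. The log2 change was 0.97 ± 0.20 (SE, n = 8 against 8 mice; adjusted p = 0.0112 by limma). Within mouse tags under 4300 it was 0.83 (adjusted p = 0.0180) and from 4300 it was 1.02 (adjusted p = 0.0412). In the range from 4300 the Tip30+/- arm is 1 mouse, assumed to vary like the other groups, so that value adds little. Col1a1 was called in 16 of 16 fits that each left out 1 mouse and in 15 of 15 other settings, with log2 changes from 0.83 to 1.27.

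Col3a1 (ENSMUSG00000026043, chromosome 1, 45311538 to 45349706) encodes the chain of type III collagen, which forms the reticular fibres of the space between sinusoids and hepatocytes. Wild-type livers had 496, 893, 404 and 417 normalized counts. Those of Tip30+/- mice had 572, 514, 524 and 542. Ncoa5+/- livers held 559.8, 995, 658 and 1059, and double heterozygotes 584, 927, 815 and 928. Wild type 2 lay among the highest livers and Ncoa5+/- 1 and double heterozygote 1 near the 8 livers without the deletion, so the groups overlapped. The log2 change was 0.58 ± 0.17 (SE, n = 8 against 8; adjusted p = 0.0492 by limma), at the edge of the threshold. It passed in 4 of the 16 fits without 1 mouse, those without wild type 2, Ncoa5+/- 1, Ncoa5+/- 3 or double heterozygote 1, and in 9 of 15 other settings. Within tags under 4300 the log2 change was 0.31 (adjusted p = 0.396 by limma) and from 4300 it was 0.85 (adjusted p = 0.131).

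Col6a3 (ENSMUSG00000048126, chromosome 1, 90765923 to 90843971) encodes the longest chain of type VI collagen, the beaded filament that links cells to fibrillar matrix. Its normalized counts were 151, 261, 147 and 148 in wild type, 194, 163, 122 and 137 in Tip30+/-, 244, 289, 202 and 250.3 in Ncoa5+/-, and 177, 264, 201 and 234 in double heterozygotes. Wild type 2 lay above every liver with the deletion except Ncoa5+/- 2 and double heterozygote 2, so the groups overlapped. Without wild type 2, the highest liver lacking the deletion was Tip30+/- 1, which lay above 1 of the 8 livers that carried it. The log2 change was 0.51 ± 0.14 (SE, n = 8 against 8; adjusted p = 0.0360 by limma). Col6a3 passed in 12 of 15 other settings but in 5 of the 16 fits without 1 mouse, those without wild type 2, Tip30+/- 1, Ncoa5+/- 3 or double heterozygote 1 or 4. Within tags under 4300 it was 0.44 (adjusted p = 0.142) and from 4300 it was 0.63 (adjusted p = 0.154), neither past the threshold.

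**Figure D2:**
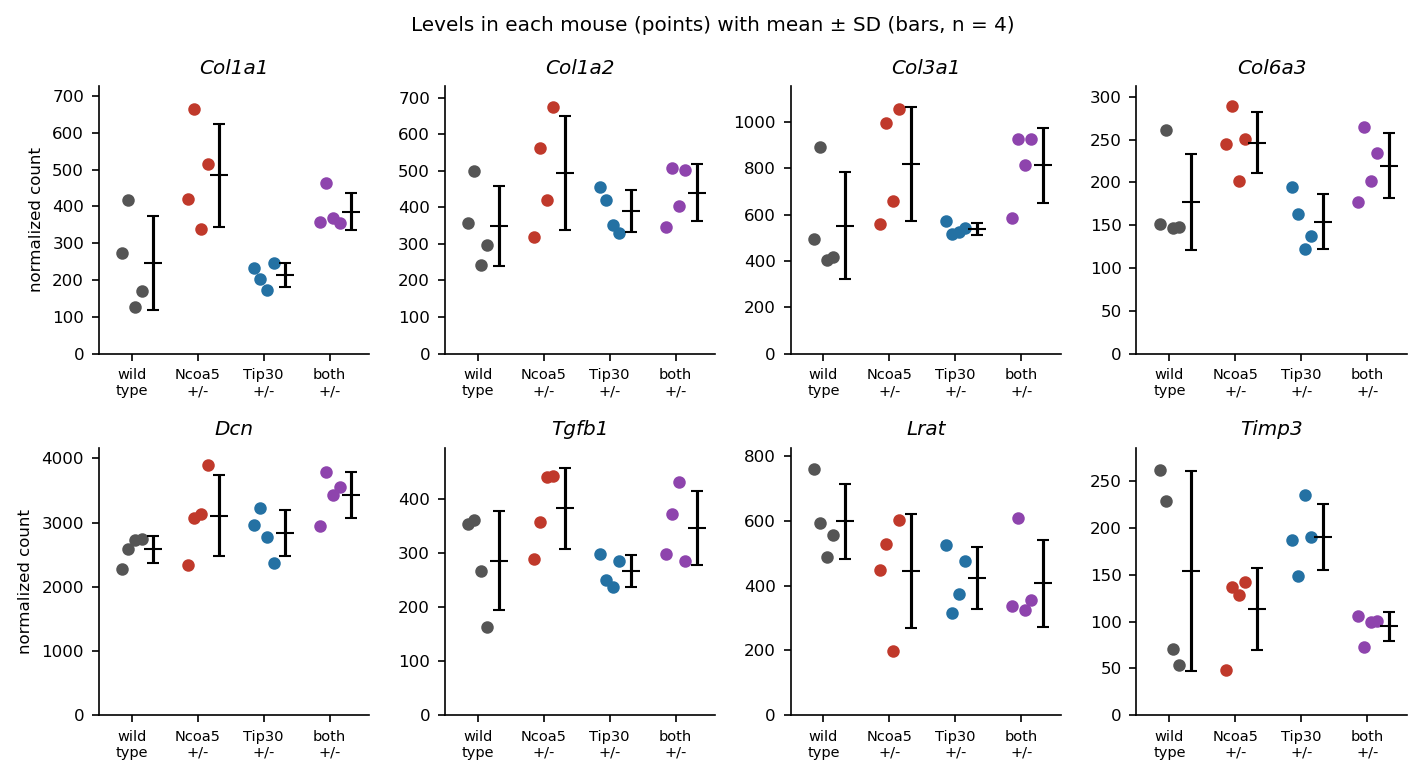
Normalized counts of 8 genes in each mouse (points) with the mean ± SD of the 4 mice of a genotype (bars). For Col1a1, wild type 2 at 416 is the only liver without an Ncoa5 deletion that reaches the range of the livers with one, 337 to 665; Timp3 shows a pair of wild-type mice at 262 and 229 and a pair at 71.2 and 53.3.

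The partner chains of these collagens had smaller changes that were not called. Col1a2, the alpha 2 chain of type I collagen, had normalized counts of 358, 498, 243 and 296 in wild type and 455, 421, 352 and 331 in Tip30+/-. It held 319, 561, 421 and 675 in Ncoa5+/- and 347, 507, 405 and 502 in double heterozygotes. Its log2 change over the Ncoa5 main effect was 0.33 ± 0.16 (SE, n = 8 against 8; adjusted p = 0.210 by limma), smaller than that of Col1a1. The ratio of Col1a1 to Col1a2 normalized counts, chosen after its values were seen, was 0.523 to 0.835 in wild type, 0.48 to 0.743 in Tip30+/-, 0.762 to 1.32 in Ncoa5+/- and 0.706 to 1.03 in double heterozygotes. Col6a1 and Col6a2, the short chains of type VI collagen, had log2 changes of 0.21 (adjusted p = 0.419) and 0.29 (adjusted p = 0.257). The fibrillar collagens Col5a1 and Col5a2, which regulate fibril diameter, stood at 0.17 and 0.02. All 5 fibrillar collagens and all 4 genes of the beaded filament and related group thus had a value above 0, with medians of 0.33 and 0.25, and the 2 groups held all 3 calls.

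Basement membrane genes did not share that sign, with 3 of 7 above 0 and a median of -0.07. Col4a1 normalized counts were 950.2, 1327, 587 and 556 in wild type, 586, 922, 880 and 1144 in Ncoa5+/-, 797, 603, 585 and 658 in Tip30+/-, and 537, 800, 982 and 778 in double heterozygotes. Those of Col4a2 were 625, 889.7, 445 and 361, then 488, 788, 628 and 839.5, then 461, 356, 446 and 453, and last 369, 570.1, 784 and 514 in the same order of genotypes. Every genotype's range overlapped that of wild type for both chains. Over the Ncoa5 main effect their log2 changes were 0.15 (adjusted p = 0.645 by limma) and 0.32 (adjusted p = 0.298). Lamb1 and Lamc1, chains of laminin, stood at -0.07 and -0.13, Nid1, the linker nidogen, at 0.08, and Col18a1 at -0.18 (adjusted p = 0.209).

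Proteoglycans and glycoproteins had a value above 0 in 6 of 7, with a median of 0.19. Dcn, a small proteoglycan that binds collagen fibrils, had normalized counts of 2283, 2588, 2722 and 2741 in wild type and 2963, 3233, 2779 and 2376 in Tip30+/-. Ncoa5+/- livers held 2334, 3077, 3137 and 3892, and double heterozygotes 2946, 3788, 3434 and 3562. Its log2 change of 0.26 ± 0.10 (SE, n = 8 against 8) had an adjusted p of 0.0999 by limma. Fn1 was the exception to the sign, at 56573, 46135, 54192 and 58677 in wild type and 61329, 58653, 51848 and 57096 in Tip30+/-. It lay at 45899, 45517, 60019 and 49524 in Ncoa5+/- and at 41768, 29397, 55398 and 50248 in double heterozygotes. Double heterozygote 2 was lowest, and the groups overlapped. Its log2 change was -0.26 ± 0.12 (SE; adjusted p = 0.168 by limma), with -0.43 (adjusted p = 0.0399) within tags under 4300 and -0.08 from 4300. Lum (lumican), Sparc, Bgn, Ecm1 and Fbn1 had log2 changes of 0.08 to 0.25 with adjusted p from 0.236 to 0.657.

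Among the enzymes and inhibitors of matrix turnover, 5 of 6 had a value above 0 and none was called. Loxl1, a lysyl oxidase that crosslinks elastin and collagen, had the largest, 0.58 ± 0.21 (SE, n = 8 against 8; adjusted p = 0.0986 by limma), with 36.9 to 94.7 normalized counts without an Ncoa5 deletion and 60.4 to 152 with one. Loxl2, Mmp2, Mmp14 and Timp2 lay between 0.19 and 0.36. Timp3, a matrix-bound inhibitor of metalloproteinases, went the other way at -0.61 ± 0.32 (SE; adjusted p = 0.243) and is described with the wild-type livers below.

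The growth factor genes had a median of 0.35. Tgfb1 lay at 353, 361, 266 and 163 in wild type, 298, 249.1, 236 and 285 in Tip30+/-, 288, 356, 441 and 443 in Ncoa5+/-, and 299, 372, 431 and 285 in double heterozygotes. Wild type 1 and 2 lay within the range of the livers with an Ncoa5 deletion. Its log2 change was 0.41 ± 0.15 (SE, n = 8 against 8; adjusted p = 0.104 by limma), with 0.10 within tags under 4300 and 0.69 from 4300. Pdgfrb held 250, 307, 253 and 235 in wild type, 179, 249.5, 307 and 263 in Ncoa5+/-, 256, 211, 221 and 219 in Tip30+/-, and 170.3, 229, 309 and 297 in double heterozygotes. Its log2 change was 0.01, with a 95% confidence interval of -0.26 to 0.29. Pdgfra, its sister receptor, stood at 0.32 (adjusted p = 0.174) and Tgfbr2, a receptor of transforming growth factor beta, at 0.38 (adjusted p = 0.315).

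None of the 5 stellate cell and cytoskeletal genes was called. Of these 4 had a log2 change above 0, with a median of 0.19, and Lrat was the exception. Reln stood at 0.19 (adjusted p = 0.504 by limma). Des held 184, 226, 156 and 144 in wild type, 139.7, 204, 201 and 231 in Ncoa5+/-, 206, 209.9, 157 and 159.8 in Tip30+/-, and 229.8, 248, 206 and 187 in double heterozygotes, and its log2 change was 0.19 (adjusted p = 0.3598 by limma). Lrat held 759, 593, 488 and 555 in wild type, 449, 529.5, 198 and 603 in Ncoa5+/-, 525, 314, 375 and 477 in Tip30+/-, and 338, 608, 326 and 355 in double heterozygotes. Wild type averaged 599, and the mutants in that order 445, 423 and 407, with overlapping ranges, and its log2 change was -0.30 ± 0.21 (SE; adjusted p = 0.392). Acta2 held 28.6, 150.4, 53.4 and 31.0 in wild type, 33.8, 95.7, 98.9 and 41.9 in Ncoa5+/-, 17.9, 83.4, 213 and 46.1 in Tip30+/-, and 268, 46.1, 30.3 and 33 in double heterozygotes. That is a 14.96-fold range over the mice, so its log2 change of 0.08 had a 95% confidence interval of -1.17 to 1.32. Vim stood at 0.43 ± 0.19 (SE; adjusted p = 0.160).

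**Figure D3:**
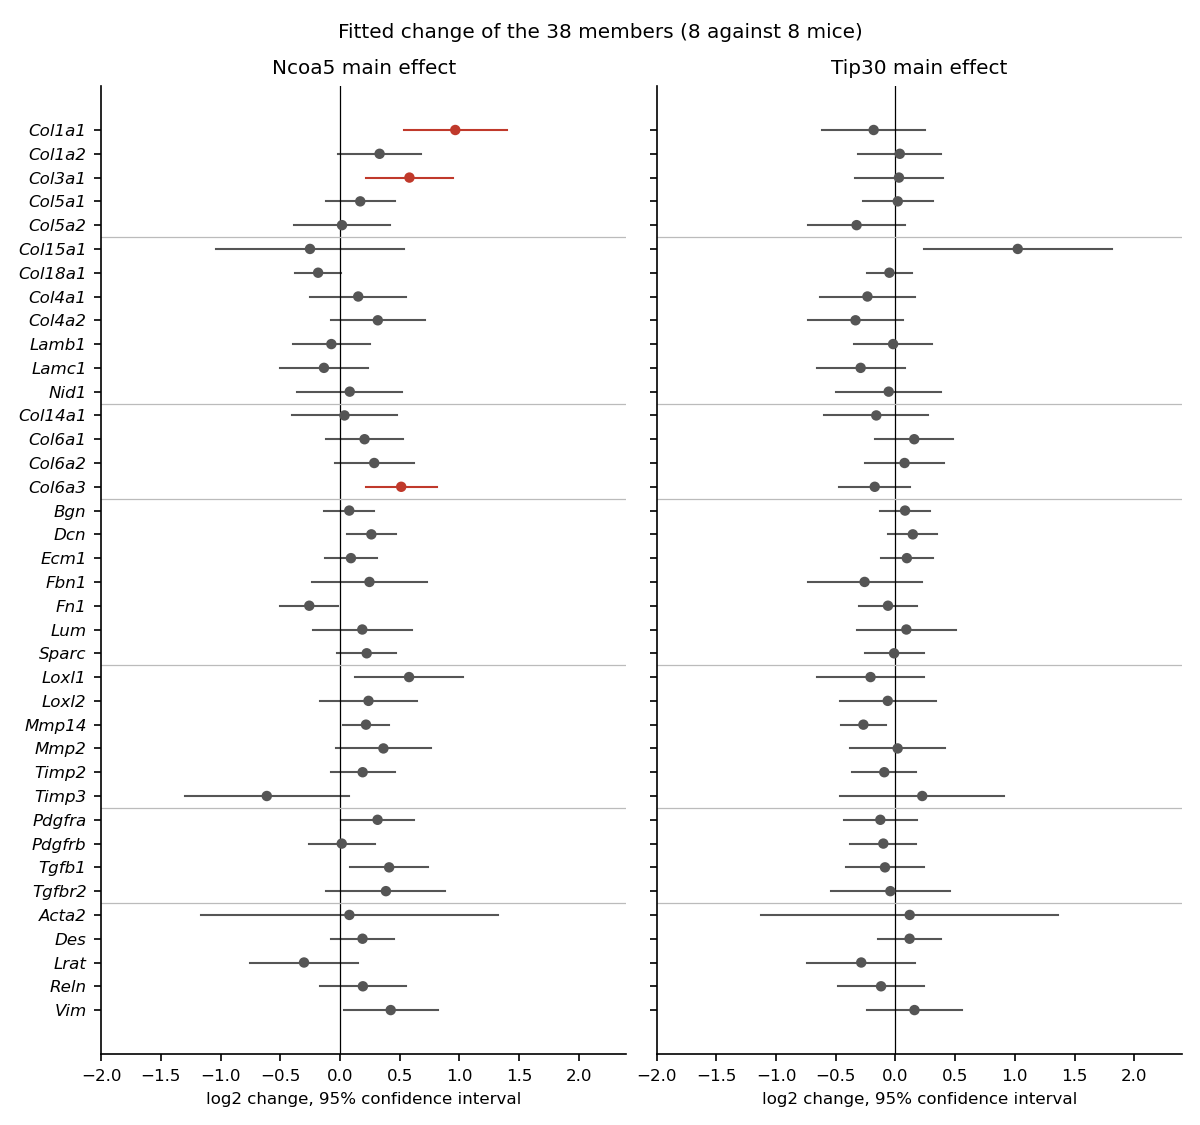
Fitted log2 change of the 38 genes with 95% confidence intervals for the Ncoa5 main effect (left) and the Tip30 main effect (right), 8 against 8 mice, with lines between roles. Red marks the 3 genes with an adjusted p under 0.05, Col1a1 at 0.97, Col3a1 at 0.58 and Col6a3 at 0.51; none is red on the right.

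Genes of the surrounding pathways were taken from lists made from general knowledge, but chosen with earlier results of these data known. Their counts stand beside 3.94% of all tested genes higher and 3.95% lower. In the Ncoa5 main effect 1 of 25 genes of the transforming growth factor beta pathway was higher, Tgfbi at a log2 change of 0.35 (adjusted p = 0.0485 by limma), which encodes a matrix protein induced by the factor. One was lower, Smad2, a signal transducer, at -0.33 (adjusted p = 0.0485), so both counts are at the share of all tested genes. Of 22 other collagens and laminins only Lamc3 was called, at 0.99 (adjusted p = 0.0448), with a mean of 27.3 normalized counts. Pdgfa, a ligand of the Pdgfra receptor, was the 1 called of 15 ligands and matrix receptors, at 0.52 (adjusted p = 0.0278). None of 17 enzymes of collagen processing and none of 12 genes of matrix degradation was called, with Plod1 at -0.22 (adjusted p = 0.0682), Bmp1 at -0.23 (adjusted p = 0.0847), Plg at -0.27 (adjusted p = 0.0670) and Mmp15 at 0.25 (adjusted p = 0.0885).

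The other collagens and laminins had higher values in double heterozygotes than in wild type. The median log2 change of the 22 was 0.50 against -0.01 over all tested genes, and 9 of 22 had an unadjusted p under 0.05, beside 22% of tested genes. After adjustment 1 was called, Col27a1, which encodes a fibrillar collagen chain, at 1.575 ± 0.353 (SE, n = 4 against 4; adjusted p = 0.0320 by limma), beside 1.4% of tested genes higher. The 23 listed genes summed to 6434 to 7725 normalized counts in double heterozygotes and to 4199 to 5208 in wild type, without overlap. They summed to 4706 to 6230 in Ncoa5+/- and to 5113 to 6246 in Tip30+/-, which both overlapped wild type. Against wild type, no gene of the list was called in either single heterozygote. Sums follow their most abundant genes, here including Col27a1 at a mean of 718.3 and Col5a3 at 336.9 normalized counts. In double heterozygotes the matrix degradation list summed to 57112 to 71543, wholly below the 72476 to 97841 of wild type. That sum follows Plg, which had a mean of 73895.7 normalized counts and a log2 change of -0.374 (adjusted p = 0.1015 by limma). None of the 12 tested genes of the list was called, and their median log2 change was -0.008, beside -0.01 over all tested genes. The summed ligands and matrix receptors also lay wholly below wild type, at 28673 to 32337 against 36601 to 40531. Their median log2 change had the other sign, at 0.106 over 15 tested genes, and none was called. Sdc1, with a mean of 14704.4 normalized counts, weighs heavily in that sum and stood at -0.382 (adjusted p = 0.2901 by limma). Sums of the remaining lists overlapped between these genotypes.

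Other stellate cell markers that were called included Rspo3, a Wnt agonist, at 0.50 (adjusted p = 0.00917 by limma), and Hand2, a transcription factor, at 0.53 (adjusted p = 0.0301), and none of the 20 was lower. The median of the 20 was 0.13, and their summed level was 8702 to 15534 with an Ncoa5 deletion alone, 9279 to 13579 with both deletions, 10972 to 11454 in wild type and 10407 to 12993 in Tip30+/-. In bulk liver, more cells of a type and more RNA per cell cannot be told apart.

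Among markers of other cells, calls in the Ncoa5 main effect came mainly from lymphocyte genes. Of 12 genes of portal fibroblasts and smooth muscle 1 was higher in the Ncoa5 main effect, Thy1 at 0.96 (adjusted p = 0.00832 by limma), with Eln next at 0.60 (adjusted p = 0.0501). The 15 listed had summed levels that overlapped between genotypes, at 3365 to 3559 in wild type, 3108 to 3978 in Ncoa5+/-, 3386 to 4147 in Tip30+/- and 3152 to 3873 in double heterozygotes. Of 13 lymphocyte genes 5 were higher, Cd8a at 3.15 (adjusted p = 7e-05), Cd8b1 at 2.79, Nkg7 at 1.41, Cd3g at 0.90 and Cd3e at 1.25. Their means over all livers were low, at 30, 10.6, 18, 24 and 11.9 normalized counts in that order. A gene so near the minimum of 10 can pass it through the livers where it is high. The count of 5 of 13 therefore depends in part on that filter. The 15 listed lymphocyte genes summed to 166 to 597 in wild type, 233 to 471 in Tip30+/-, 527 to 698 in Ncoa5+/- and 445 to 671 in double heterozygotes. Of 8 cholangiocyte genes Spp1 (osteopontin), which other cells also make, was higher at 0.97 (adjusted p = 0.00225), and the summed level of the 10 listed ran from 1306 to 2553 in wild type, 1252 to 2684 in Tip30+/-, 2055 to 3220 in Ncoa5+/- and 1860 to 2934 in double heterozygotes.

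None of 14 macrophage genes was called, with a median of 0.40, C1qa at 0.53 (adjusted p = 0.0677 by limma) and C1qb at 0.55 (adjusted p = 0.0698). The 15 listed summed to 5889 to 13775 in wild type, 11170 to 14250 in Tip30+/-, 12537 to 23306 in Ncoa5+/- and 10035 to 19386 in double heterozygotes. No gene was called among 12 sinusoidal endothelial genes (Clec4g 0.30 and Oit3 0.20), 12 hepatocyte genes (Hnf4a -0.36 and Cyp3a11 0.51) or 8 mesothelial genes (Msln 0.58 and Upk1b 0.27). No marker list had a gene at 0 in all mice of a genotype. Sums ran from 7744 to 16188 for endothelium, from 2410216 to 3707274 for hepatocytes and from 286 to 1861 for mesothelium over the 16 livers. The part of any of these in the collagen changes was not tested.

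Compared with wild type alone, Ncoa5+/- livers gave no member call, beside 0.531% of tested genes higher and 0.0262% lower. At an unadjusted p under 0.05 there were 6 members (15.8%) against 10.2% of tested genes, and 28 of 38 had a log2 change above 0 (73.7%, against 47.5% of tested genes). Col1a1 came closest at a log2 change of 1.07 ± 0.29 (SE, n = 4 against 4; adjusted p = 0.138 by limma, exact permutation p = 0.0571), then Col6a3 at 0.51 (adjusted p = 0.369) and Col3a1 at 0.59 (adjusted p = 0.400). DESeq2 on the recovered reads called Col1a1 at 0.98 (adjusted p = 0.0410). Without wild type 2 limma also called it, at 1.37 (adjusted p = 0.0129), beside 0.537% of tested genes higher. Wild type 2 was the highest control for Col1a1, so leaving it out lowers the wild-type mean in advance. The comparisons with wild type share the same 4 control livers, so their values are given side by side and not set against each other.

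Double heterozygotes gave no member call either, beside 1.4% of tested genes higher and 1.27% lower. At an unadjusted p under 0.05 there were 4 members of 38 against 22% of tested genes. Of the 38, 25 had a log2 change above 0 (65.8%, against 48.7% of tested genes). Dcn had the smallest p, at 0.41 ± 0.14 (SE, n = 4 against 4; adjusted p = 0.103 by limma), followed by Col1a1 at 0.78 (adjusted p = 0.132) and Col3a1 at 0.61 (adjusted p = 0.158). Without wild type 2, Col1a1 at 1.08 (adjusted p = 0.0379 by limma) and Col3a1 at 0.87 (adjusted p = 0.0436) passed, beside 1.02% of tested genes higher. Wild type 2 was the highest control for both genes, so leaving it out lowers the wild-type mean in advance. Those 2 calls do not measure a stronger effect. Every double heterozygote lay above every wild-type liver for Dcn, at 2946 or more against 2741 or less. The same was true of Col6a1, with 258, 284, 236 and 253 against 166, 230.3, 193 and 216. These 2 of 38 members (5.26%) stood beside 4.7% of tested genes with groups that did not overlap in this direction, and no member lay wholly below wild type, as 6% of tested genes did. Their exact permutation p was 0.0286 each, the smallest that 4 against 4 mice allow. Col6a1 had an adjusted p of 0.341 by limma. No member separated Ncoa5+/- from wild type without overlap, beside 3.25% of tested genes higher and 2.42% lower, and none separated Tip30+/- from wild type, beside 2% higher and 2.44% lower. Between all 8 livers with a deletion and the 8 without it, again no member was free of overlap, beside 0.786% higher and 0.269% lower for Ncoa5 and 0.0393% higher and 0.0459% lower for Tip30.

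Between Tip30+/- and wild-type livers no member was called, beside 0.00655% of tested genes higher and 0.00655% lower. With 4 mice a genotype, that does not show that levels were alike. Of the 38 members, 18 were above 0 (47.4%, against 52.3%), and the median log2 change was -0.04. Of the members only Mmp14 had an unadjusted p under 0.05 (2.63%, against 7.34% of tested genes). Its normalized counts were 1625, 1564, 1772 and 1745 in Tip30+/- and 1761, 2424, 2904 and 2045 in wild type, so that only wild type 1 lay within the Tip30+/- range. They were 2459.9, 2503, 2215 and 2223 in Ncoa5+/- and 2479, 2071, 1967 and 2180.2 in double heterozygotes. The log2 change between Tip30+/- and wild type was -0.42 ± 0.13 (SE, n = 4 against 4; adjusted p = 0.518 by limma). Next were Col15a1 at 0.96 ± 0.52 (adjusted p = 0.732) and Lrat at -0.51 ± 0.30 (adjusted p = 0.756).

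Averaged over both Ncoa5 genotypes, the Tip30 deletion also gave no member call, beside 0.0917% of tested genes higher and 0.0393% lower, and 15 of 38 were above 0 (39.5%, against 50%). At an unadjusted p under 0.05 there were 2 members against 11.8% of tested genes. Col15a1, a collagen of the basement membrane zone, had the largest value, 1.02 ± 0.37 (SE, n = 8 against 8; adjusted p = 0.294 by limma). Its normalized counts were 617, 453, 572 and 531 in Tip30+/- and 742, 484, 325 and 438 in double heterozygotes. In wild type they were 219, 277, 521 and 188, and in Ncoa5+/- 250.04, 547, 281 and 63.3. Most of the livers with the deletion lay above most without it, but wild type 3 and Ncoa5+/- 2 overlapped them and Ncoa5+/- 4 was far below all. Mmp14 stood at -0.27 (adjusted p = 0.253) and Col4a2 at -0.34 (adjusted p = 0.507).

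The interaction asks whether the double heterozygote departs from the sum of the 2 single changes. It gave no call among the members and none among all 15263 tested genes (0% higher and 0% lower). DESeq2 called 1 gene and edgeR 0. At an unadjusted p under 0.05 there were 0 members against 4.26% of tested genes, and 18 of 38 were above 0 (47.4%, against 45.4%). For Col1a1 the interaction was -0.21 with a 95% confidence interval of -1.08 to 0.65, and for Col3a1 it was -0.02 with an interval of -0.75 to 0.71. These intervals, which are not adjusted for the number of genes, include departures from additivity in both directions. The size of departure that 4 mice per genotype could detect was not tested.

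Wild-type livers differed among themselves in most of these genes. Wild type 1 and 2 were both above wild type 3 and 4 for 24 of 38 members and both below for 2, Col18a1 and Dcn, next to 24.1% and 24.2% of all tested genes. Timp3 showed it most, with 262 and 229 normalized counts in wild type 1 and 2 against 71.2 and 53.3 in wild type 3 and 4, a log2 difference of 1.97. The other genotypes had 48.4, 136, 128 and 142 (Ncoa5+/-), 188, 149, 235 and 190.5 (Tip30+/-) and 106, 72.4, 99.7 and 101 (double heterozygotes). Every mutant but Tip30+/- 3 thus lay below the first pair of wild-type livers, and every mutant but Ncoa5+/- 1 lay above the second pair. Col14a1, a collagen that associates with fibrils, held 1963 and 1933 in the first pair and 873 and 872 in the second. The same pairs differ in Zhx2 and in mouse tag, which cannot be told apart within wild type.

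**Figure D4:**
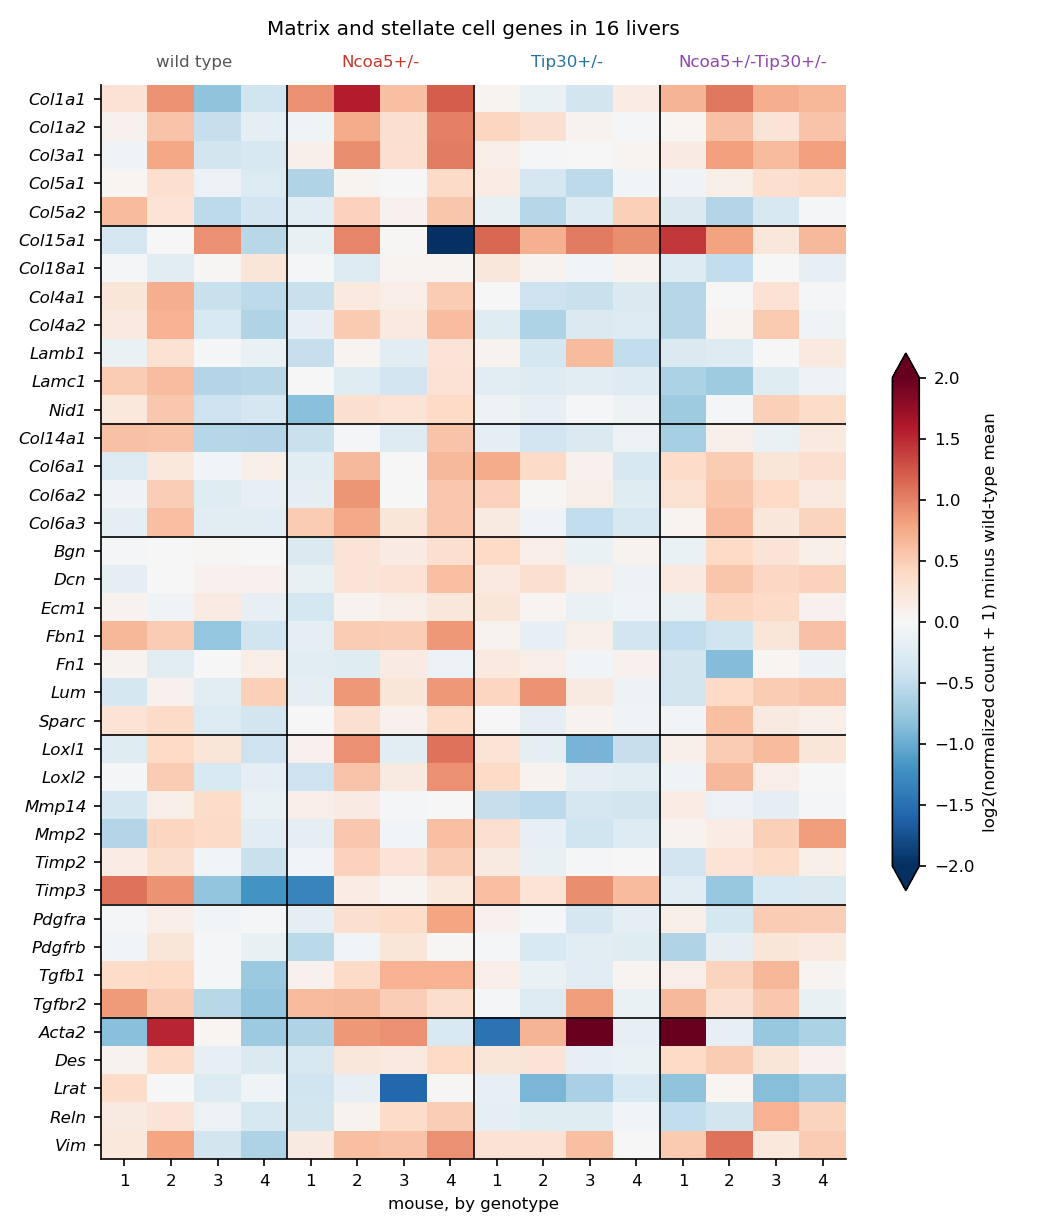
Each of the 38 genes (rows, by role) in each of 16 mice (columns, by genotype), as log2(normalized count + 1) minus the wild-type mean, with colours saturating at 2. Col1a1 is above 0 in all 8 livers with an Ncoa5 deletion, and the columns of wild type 1 and 2 are redder than those of wild type 3 and 4 for 24 genes.

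Comparisons made within mouse tags use either wild type 1 and 2 or wild type 3 and 4 as controls. The part of the wild-type split in their results was not tested. Under 4300, double heterozygotes were lower than wild type for Timp3 (log2 change -1.47, adjusted p = 0.0290 by limma), Lamc1 (-1.23, adjusted p = 0.00412), Fbn1 (-1.03, adjusted p = 0.0322) and Reln (-0.65, adjusted p = 0.0177). These are 4 of 38 members, beside 6.34% of tested genes lower in that fit and 4.25% higher. From 4300, Reln was higher instead, at 0.79 (adjusted p = 0.0396, beside 0.275% of tested genes higher), and Fbn1 stood at 1.003 (adjusted p = 0.154). Reln normalized counts were 1719 and 1821 in wild type 1 and 2 against 1080.1 and 1184 in double heterozygotes 1 and 2, then 1405 and 1216 in wild type 3 and 4 against 2457 and 2074 in double heterozygotes 3 and 4. Over all 4 mice a group the Reln change was 0.07 (adjusted p = 0.896). Reln held 1177, 1603, 1956 and 2132 in Ncoa5+/- and 1349.9, 1293, 1289 and 1468 in Tip30+/-. In Ncoa5+/- as in double heterozygotes, mice with the higher tags had more Reln. The difference between tag ranges was not itself tested.

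Within the same ranges Ncoa5+/- livers were higher than wild type from 4300 for Col1a1 (1.497, adjusted p = 0.0299 by limma), Tgfb1 (1.08, adjusted p = 0.0489), Vim (1.24, adjusted p = 0.0325) and Fbn1 (1.26, adjusted p = 0.0482), beside 0.845% of tested genes higher. Under 4300 the same comparisons gave 0.65 for Col1a1, -0.15 for Tgfb1 and -0.11 for Vim. Each range holds 1 to 3 mice per genotype, and Tip30+/- has a single mouse from 4300. Without the 4 livers low in Zhx2 the Ncoa5 main effect had 5 members higher (13.2%, beside 2.65% of tested genes), Col1a1 (1.27), Col3a1 (0.77), Col6a3 (0.61), Tgfb1 (0.64) and Vim (0.68). The dropped livers include wild type 1 and 2, which lay above wild type 3 and 4 for each of these genes. Dropping these higher controls lowers the wild-type mean in advance, so the count does not measure a stronger effect of the deletion. Only wild type 3 and 4 and Ncoa5+/- 2 and 3 remain of those genotypes.

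Of 8 pairs of members examined, 4 correlated across livers, and all 4 were pairs of collagen chains. Subtracting the genotype mean leaves in place the split among wild-type livers, in which 24 of 38 members shared a direction. Other pairs were not examined, so whether the correlation is particular to collagen chains was not tested. With the genotype mean subtracted, log2 values of Col4a1 and Col4a2 correlated at r = 0.944 and rho = 0.935 over 16 mice (permutation within genotype, unadjusted p = 3e-05 and 6e-05, adjusted over 8 pairs p = 0.00024 and 0.00048). The 2 genes stand head to head on chromosome 8 and overlap by 22 bases, and with no strand marking stated, reads in that overlap cannot be assigned to either. Leaving out the 2 mice farthest from the median of Col4a1 gave r = 0.915, and r was 0.92 within tags under 4300 (n = 9) and 0.947 from 4300 (n = 7). Subtracting genotype means within a tag range leaves few independent values, fewer than n, and the lone Tip30+/- mouse from 4300 adds none. The r values within tags, here and below, were not tested and describe these livers only.

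Col6a1 and Col6a2, which lie on the same strand of chromosome 10 with 85161 bases between them, correlated at r = 0.828 and rho = 0.821 (permutation p = 0.00374 and 0.00638, adjusted p = 0.0150 and 0.0255). Without the 2 farthest mice r was 0.804, and within tags it was 0.931 and 0.866. Col1a1 and Col3a1, on different chromosomes, correlated at r = 0.782 and rho = 0.674 (permutation p = 0.0073 and 0.0157, adjusted p = 0.0195 and 0.0419), with r = 0.626 without the 2 farthest mice and 0.937 and 0.813 within tags. Col1a1 and Col1a2 correlated at r = 0.721 and rho = 0.688 (permutation p = 0.0170 and 0.0212, adjusted p = 0.0340 and 0.0424), with r = 0.529 without the 2 farthest mice and 0.97 and 0.874 within tags.

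**Figure D5:**
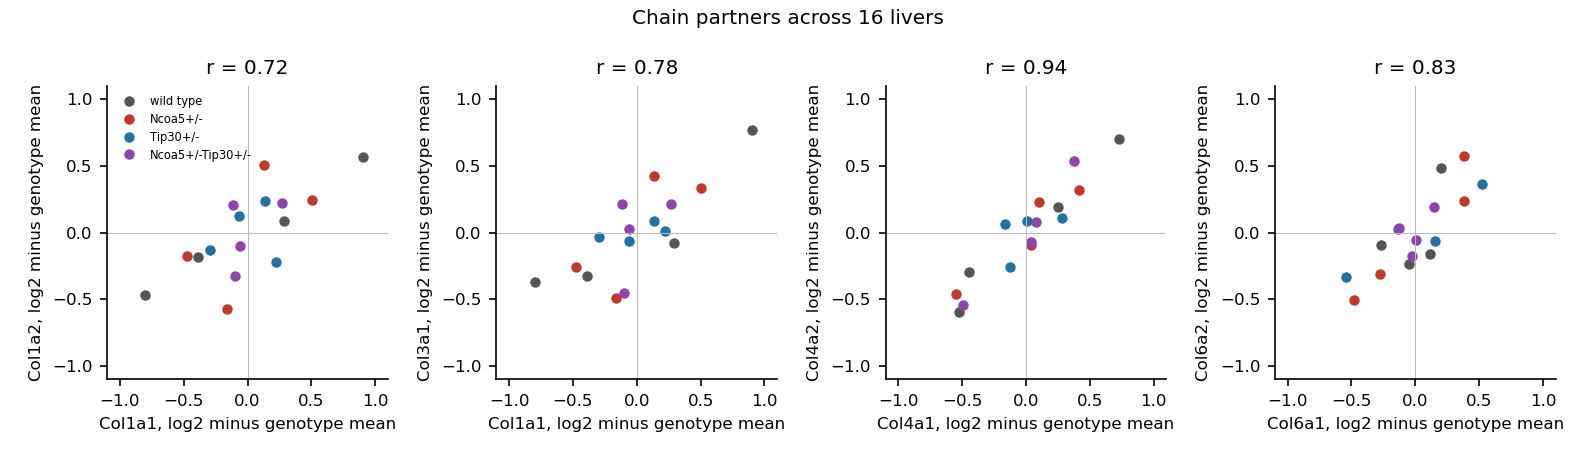
Log2 values minus the genotype mean for 4 pairs of collagen chains, with 1 point per mouse and colours by genotype. Points rise along the diagonal in each panel, most tightly for Col4a1 and Col4a2 (r = 0.944) and least for Col1a1 and Col1a2 (r = 0.721).

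The other 4 pairs did not pass. Lamb1 and Lamc1 had r = 0.351 and rho = 0.356 (permutation p = 0.0612 and 0.131, adjusted p = 0.0980 and 0.175), with r = 0.344 without the 2 farthest mice and -0.115 and 0.952 within tags. The myofibroblast and stellate markers Acta2 and Des had r = 0.227 and rho = 0.271 (permutation p = 0.409 and 0.342, adjusted p = 0.468 and 0.391), with 0.074 without the 2 farthest and -0.013 and -0.422 within tags. Lrat and Reln had r = -0.15 and rho = -0.076 (permutation p = 0.636 and 0.816, adjusted p = 0.636 and 0.816), with 0.141, 0.413 and 0.234 in the same order. Col1a1 and Tgfb1 had r = 0.478 and rho = 0.556 (permutation p = 0.270 and 0.0867, adjusted p = 0.3603 and 0.139), with r = 0.443 without the 2 farthest mice, 0.8 under 4300 and -0.375 from 4300. For Tgfb1 and Col1a1 the sign of r thus differed between tag ranges. Too few independent values remain from 4300 to judge whether the 2 genes varied together there.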

How the data were processed

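Whole-liver polyadenylated RNA of 16 mice was measured. The deposited signal values are read counts per gene that the authors divided by a DESeq2 size factor per library, here called normalized counts. Reads were trimmed with Trimmomatic 0.36, aligned with STAR 2.6.0c to GRCm38 and normalized with DESeq2 1.28.1, per the submitters' processing notes. For the counting program, annotation release and strand marking, nothing is given in the sources used here. All values were whole multiples of 1 step per library (tolerance 1e-04), which gave whole reads, and no library was a copy of another.

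The 15263 genes with a mean of at least 10 were tested with limma 3.58.1 (trend, robust, 2-sided) on log2(value + 1), as 4 genotype means over 16 libraries. Fold changes are on that scale, which understates low genes, and adjusted p-values without another name are from limma with Benjamini-Hochberg adjustment over all tested genes. Exact permutation tests used the 70 arrangements of 4 against 4 mice, and correlations 100000 permutations within genotype. Alternatives were edgeR 4.0.16 and DESeq2 1.42.0 on recovered reads, voom, other pseudocounts, filters and scalings, sample weights, a tag covariate, fits of 2 groups alone and fits without each mouse. Positions and exon lengths come from GENCODE M21.

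Members and lists were chosen with earlier results of these data known. Values of every mouse are given for called members, the 3 of smallest p per comparison and 14 genes listed by role, and the others as ranges. From each list up to 4 called genes, or else the 2 of smallest p, are named for the Ncoa5 main effect (5 for lymphocytes). Leaving out the livers low in Zhx2 and fitting within mouse tag ranges were added with the data known. A called gene of the other stellate cell markers is not reported here.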

Additional observations from a re-analysis of the deposited data

Results flagged for a closer look

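Within a genotype, 10 of 152 sets of 4 livers had 1 mouse far from the other 3 by Dixon's criterion, which chance meets in about 1 of 20 sets. Collagen genes gave 4 of these. Col1a1 was 462.9 normalized counts in double heterozygote 2, with 355 to 367 in the other 3, and Col4a2 was 355.6 in Tip30+/- 2, with 446 to 461 in the others. Col6a2 at 239.8 and Col6a3 at 260.8 were highest in wild type 2, where the other wild-type livers had 145 to 161 and 147 to 151. The same liver was highest for Pdgfra, at 190.3 against 166 to 169.

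Ncoa5+/- 1 was lowest of its genotype for Nid1, at 163.3 against 355 to 384, and for Timp3, at 48.4 against 128 to 142. Tgfbr2 reached 1061.8 in Tip30+/- 3, where the others had 489 to 585. Acta2 reached 267.9 in double heterozygote 1, against 30.3 to 46.1, and Lrat reached 607.7 in double heterozygote 2, against 326 to 355.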

How the results depend on the processing

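Over the Ncoa5 main effect, 3 members were higher in the main analysis, 1 with sample weights, 1 to 4 when single mice were left out, 5 without the livers low in Zhx2, and 1 within mouse tags under 4300, where 3 were lower. For Ncoa5+/- against wild type the count higher was 0, but 1 by DESeq2, 1 without the livers low in Zhx2, 4 within tags from 4300 and 0 to 1 with single mice left out. For double heterozygotes it was 0, but 3 without the livers low in Zhx2, 1 within tags from 4300 and 0 to 2 with single mice left out, with 4 lower within tags under 4300. For Tip30+/- it was 0, but 1 without the livers low in Zhx2 (Timp3, log2 change 1.59), and 1 was lower (Lamc1, -0.80) under 4300. Lamc1 was also the 1 member lower under 4300 for the Tip30 main effect (-0.68). Among all 15263 tested genes, those called higher and lower over the Ncoa5 main effect numbered 405 and 197 without the livers low in Zhx2, 688 and 1010 under 4300 and 152 and 40 from 4300. For double heterozygotes they were 104 and 17, 648 and 968, and 42 and 5 in the same order, so the 3 of 38 members lower under 4300 over the Ncoa5 main effect (7.89%) stand beside 6.62% of all genes. For Ncoa5+/- they were 26 and 3, 10 and 0, and 129 and 22, and for Tip30+/- 5 and 1, 240 and 205, and 1 and 0. The cause was not tested, though each of these settings holds fewer mice except DESeq2 and the weights.

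By tool, genes called over the Ncoa5 main effect numbered 602 higher and 603 lower by limma, 937 and 866 by DESeq2, and 641 and 485 by edgeR. For double heterozygotes they were 213 and 194 by limma and 539 and 505 by DESeq2, for Ncoa5+/- 81 and 4 against 209 and 48, for Tip30+/- 1 and 1 against 18 and 25, and for the Tip30 main effect 14 and 6 against 89 and 157 (17 and 12 by edgeR). Counts from exact permutation tests were the same on untransformed values. With 4 mice per genotype, intervals are wide for variable genes, from -1.17 to 1.32 on the log2 scale for Acta2. No paired analysis was possible because replicate numbers were given in accession order and the labels carry no number that genotypes share.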
